A study of Mus musculus with 2 samples.

Results

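Cytosolic ribosomal protein genes were taken from the kidney transcriptome of newborn mice by their symbols: protein-coding genes named Rpl or Rps with a number, an optional a, x or y and an optional final l, the stalk genes Rplp0 to Rplp2, and Rpsa. Rps6k kinases and names that mark pseudogenes stayed out. The rule found 82 genes, 47 of the large subunit, 3 of its stalk and 32 of the small subunit, among 21474 protein-coding genes and 69691 features in all. Another 4 symbols of the same form, Rpl6l, Rps3a2, Rps3a3 and Rps4l, are annotated as pseudogenes and are no members. Fau and Rack1, which also encode proteins of the ribosome, do not follow the naming and are given separately. Total RNA longer than 200 nt was profiled from both kidneys of each of 2 B6NCrl mouse pups at postnatal day 0, from 10 ng of RNA with spike-ins added. The pups were littermates, no allele or treatment was labelled, and both libraries form 1 group, so the error is the spread between littermates (n = 2) and no p-value is given. Sex was not collected.

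A ribosome carries ribosomal RNA and a set of small basic proteins, nearly all in a single copy, so a cell has to make these proteins in matching amounts. Their mRNAs are short, abundant and mostly begin with a run of pyrimidines at the cap, the 5′ terminal oligopyrimidine (TOP) tract, through which growth signalling by mTOR sets their translation. Many ribosomal protein genes carry small nucleolar RNAs (snoRNAs), guides of rRNA modification, in their introns, and the gene family has left many processed pseudogenes in mammalian genomes. In the mouse, new nephrons still form in the first days after birth, and such growth needs new ribosomes.

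The first bases of some members are shown because the TOP tract is the sequence feature that defines this class of mRNA. Each line runs from 10 bases before to 19 bases after the annotated start, from RefSeq on GRCm38.p6, with the tract in capitals. Rps18 is at chr17:33955646-33955675 (minus strand), Rpl13a at chr7:45128726-45128755 (minus), Rps10 at chr17:27635225-27635254 (minus), Rpl35a at chr16:33056472-33056501 (plus), Rps6 at chr4:86857348-86857377 (minus), Rpl15 at chr14:18270967-18270996 (minus), Rpl27a at chr7:109519185-109519214 (plus) and Rpl41 at chr10:128549149-128549178 (minus).
Rps18: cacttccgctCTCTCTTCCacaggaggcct
Rpl13a: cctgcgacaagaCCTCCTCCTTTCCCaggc
Rps10: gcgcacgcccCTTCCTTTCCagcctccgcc
Rpl35a: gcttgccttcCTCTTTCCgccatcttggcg
Rps6: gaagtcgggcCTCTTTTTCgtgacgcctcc
Rpl15: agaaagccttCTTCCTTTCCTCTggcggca
Rpl27a: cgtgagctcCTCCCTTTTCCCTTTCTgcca
Rpl41: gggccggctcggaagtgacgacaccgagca
The marked run begins at the annotated start in Rps18, Rps10, Rpl35a, Rps6 and Rpl15, because the search took the C nearest to it. In each of these the bases just before that C are also C or T, so the whole run begins earlier. Rpl35a also has other annotated starts, not shown, without such a run near them. Rpl41, the most abundant member, has no such run near the annotated start shown.

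A C followed by at least 4 C or T, starting within 5 bases of an annotated start, was found in 28 of the 62 members with an entry in the promoter table (45.2%), against 21.2% of all 27025 genes with a promoter there. With at least 6 C or T the shares were 35.5% of members and 7.64% of all genes. Detected mitochondrial ribosomal protein genes had the shorter run in 17 and the longer run in 2 of 68 genes (2.94% for the longer). Other detected protein-coding genes had them in 23.4% and 8.28%. CCGGAA on either strand, the core that ETS family factors bind, lay between 250 bases before and 50 bases after a start in 54.8% of members, 57.4% of these mitochondrial ribosomal protein genes and 16.7% of all genes, and in 30.3% of other detected protein-coding genes. ATGGC on either strand, part of the YY1 element, was in 56.5% of members and 44.2% of all genes. Its shares were 61.8% of the mitochondrial ribosomal protein genes and 42.7% of other detected protein-coding genes. TATAA from 45 to 15 bases before the start was in 6.45% of members and 4.67% of all genes. It was in 0% of the mitochondrial ribosomal protein genes and 2.93% of other detected protein-coding genes. These are matches of letters at annotated starts, not measured start sites.

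Coding sequences from the GENCODE M21 annotation of GRCm38, without the stop codon, show how far paralogs can be told apart by their reads. Capitals mark bases that differ between the genes of a pair. Rpl39l (chr16:10170226-10174911, plus strand) and Rpl39 (chrX:37082520-37085402, minus) differ at 23 of 153 bases, and 3 codons encode another residue.
Rpl39l: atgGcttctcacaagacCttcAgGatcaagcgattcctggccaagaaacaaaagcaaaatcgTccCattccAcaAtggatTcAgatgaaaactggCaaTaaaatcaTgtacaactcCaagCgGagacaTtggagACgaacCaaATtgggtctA
Rpl39: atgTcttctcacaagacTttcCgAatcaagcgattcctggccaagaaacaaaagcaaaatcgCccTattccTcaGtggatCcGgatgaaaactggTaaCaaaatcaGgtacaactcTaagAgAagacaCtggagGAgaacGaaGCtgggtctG
Rpl36al (chr12:69182731-69184083, minus) and Rpl36a (chrX:134585654-134588062, plus) differ at 39 of 318 bases and encode the same protein; the first 120 bases are shown.
Rpl36al: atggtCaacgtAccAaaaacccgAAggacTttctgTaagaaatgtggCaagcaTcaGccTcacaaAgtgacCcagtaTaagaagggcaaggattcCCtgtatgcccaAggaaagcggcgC
Rpl36a: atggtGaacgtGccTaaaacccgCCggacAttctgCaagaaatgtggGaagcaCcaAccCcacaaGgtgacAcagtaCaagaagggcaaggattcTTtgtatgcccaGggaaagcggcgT
The coding sequence of Rps27 (chr3:90212522-90213651, minus) is shown once because that of Rps27rt, a gene annotated as protein-coding at chr9:114982366-114982739 (minus), is identical over all 252 bases, so no read within it can tell these genes apart.
Rps27: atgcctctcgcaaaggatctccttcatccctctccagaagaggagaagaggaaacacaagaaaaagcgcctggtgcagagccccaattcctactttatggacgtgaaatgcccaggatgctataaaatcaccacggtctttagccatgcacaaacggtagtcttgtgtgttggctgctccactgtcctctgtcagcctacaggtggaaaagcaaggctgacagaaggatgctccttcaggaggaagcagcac
Rpl41 (chr10:128548114-128549305, minus) is shown because it was the most abundant member and has a coding sequence of 75 bases, rich in codons for arginine and lysine.
Rpl41: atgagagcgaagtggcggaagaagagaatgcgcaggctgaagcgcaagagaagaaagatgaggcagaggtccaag

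Depth was 41584961 expected counts (estimated reads) for pup 1 and 48823952 for pup 2, of which members held 1233558 and 1626284. All 11 kidney markers were detected, among them Slc12a1 of the thick ascending limb and the nephron progenitor genes Cited1 and Six2. Summed levels of other cell types' markers were close in both pups, at 2008 TPM in pup 1 and 2025 TPM in pup 2 for 5 erythroid genes, nearly all of it globin, 65.7 and 65.8 TPM for 3 leukocyte genes, 8.04 and 8.25 TPM for 8 muscle genes, and 0.38 and 0.53 TPM for 6 germ cell genes, of which Stra8, Tnp1 and Prm1 were at 0. Detection means a level of 1 TPM or more in both pups, where TPM, deposited by the authors, counts transcripts per length and library total.

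Ribosomal protein mRNAs were among the most abundant in the newborn kidney. Of the 82 members 79 were detected (96.3%), against 61.5% of protein-coding genes, and the 3 others were the paralogs Rpl3l, Rpl10l and Rpl39l. Members held 7.14% of all TPM in pup 1 and 7.78% in pup 2, or 7.46 ± 0.457% (SD, n = 2). The median member stood at 782 TPM in pup 1 and 855 TPM in pup 2, against 18.3 and 17.3 TPM for the median detected protein-coding gene. At 1000 TPM or more in both pups stood 25 members, of 102 such protein-coding genes in all. In these whole-organ libraries, fewer cells of a type and less RNA per cell cannot be told apart.

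Members differed in level, although the ribosome holds their products in like number. The ratio of the 90th to the 10th percentile of TPM over detected members was 4.90 in pup 1 and 4.66 in pup 2, against 42.7 and 41.5 for all detected protein-coding genes. The order of members was nearly the same in both pups, with a Spearman correlation of 0.99 across 79 members, which share library and annotation. The median coefficient of variation between pups was 5.35%, with a range of 0.388% for Rpl7a to 16.4% for Rps27.

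Rpl41, the smallest ribosomal protein, had 3218 TPM in pup 1 and 3630 TPM in pup 2 and led the family in both. Rps19, of the small subunit head and the gene most often mutated in human Diamond-Blackfan anaemia, followed with 2475 and 2728 TPM. Rpl32, a large subunit protein, had 2355 and 2571 TPM. These 3 genes kept their order in both pups, and each was higher in pup 2. Rpl36 had 1897 and 2217 TPM, and Rpl37a, a zinc-binding protein of the large subunit, had 1898 and 2205 TPM, so their order was not the same in the pups. Rps14, the small subunit gene lost in the human 5q- syndrome, had 1807 and 2097 TPM. Rps29, a zinc-binding protein of the small subunit head, had 1687 and 1945 TPM, and Rps18, of the small subunit head, had 1665 and 1805 TPM. Rpl7 (1539 and 1655 TPM) and Rps25 (1434 and 1565 TPM) completed the 10 highest members, which were split evenly between the subunits.

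At the low end, Rpl5 had 58.6 TPM in pup 1 and 54.3 TPM in pup 2, the lowest of the detected members in both. Rpl27a had 128 and 132 TPM, Rpl12 141 and 153 TPM, and Rpl27 146 and 150 TPM, and only these 4 of the 79 detected members were under 200 TPM. Above them stood Rps23 (281 and 285 TPM), the lowest of the small subunit, Rps12 (309 and 306 TPM), Rpl10a (298 and 332 TPM), Rpl15 (320 and 345 TPM), Rpl37 (315 and 366 TPM) and Rpl22 (380 and 419 TPM). Rpl22 is a large subunit protein that also binds RNA outside the ribosome. Most of these low members share sequence with abundant processed pseudogenes, described next.

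**Figure D1:**
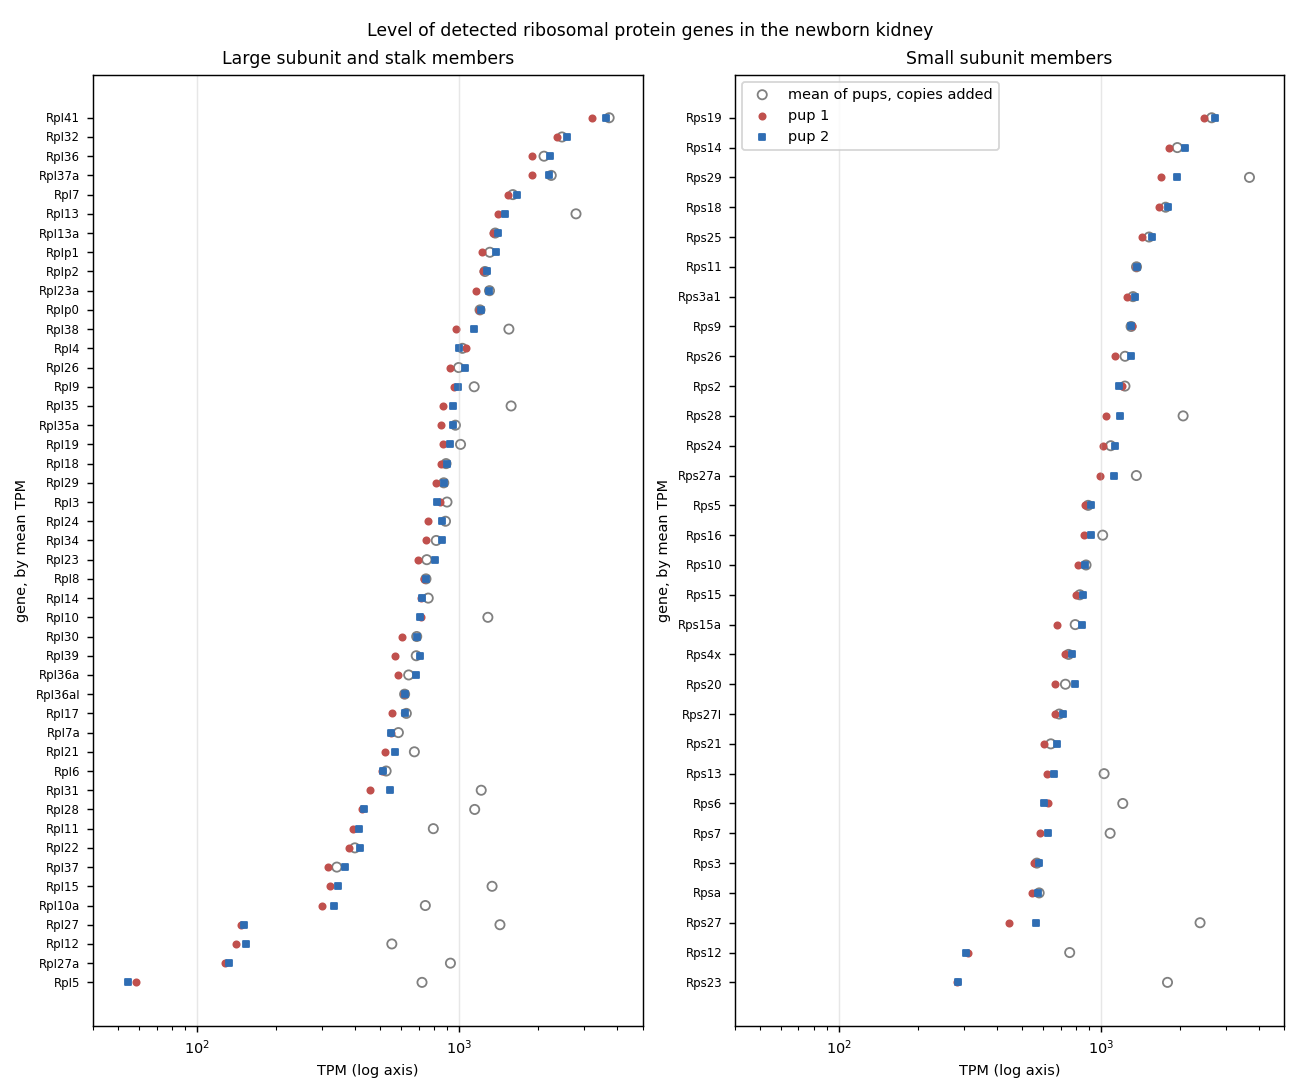
TPM (log axis) of 76 of the 79 detected members in pup 1 (circles) and pup 2 (squares), ordered by mean, for the large subunit with its stalk and for the small subunit; open circles give the mean of the pups with the TPM of copies added. Pups lie close together for each gene, from Rpl41 at 3218 and 3630 TPM to Rpl5 at 58.6 and 54.3 TPM, while the open circle of Rpl5 is at 720 TPM.

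Many members have near-identical copies elsewhere in the genome, and the authors' estimates divide the shared reads among them. Other genes with at least 50% of their own 50-base windows inside a member's transcripts numbered 174, of which 161 are annotated pseudogenes and 104 were detected, and they held 2.03% of TPM in pup 1 and 2.27% in pup 2. With the TPM of such copies added, Rpl5 stood at 705 TPM in pup 1 and 735 TPM in pup 2, of which the intronless copy Gm15500 held 646 and 680 TPM. Rpl27a reached 896 and 953 TPM, Rpl27 1382 and 1474 TPM, Rps23 1717 and 1864 TPM and Rpl15 1281 and 1384 TPM in the same sum. Rpl12 reached 532 and 573 TPM, Rps12 713 and 803 TPM and Rpl10a 716 and 767 TPM. In all, 21 members were more than 1.5 times as high with copies as without, so their own levels are uncertain. Rpl22 and Rpl37, for which no copy was found, were then the lowest at 399 ± 27.4 and 341 ± 35.7 TPM (SD, n = 2).

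Copies also changed the top of the order. Rps29 stood at 3411 TPM in pup 1 and 3946 TPM in pup 2 with Gm14303 added and Rps27 at 2147 and 2620 TPM with Rps27rt added, while Rpl41 remained first. The ratio of the 90th to the 10th percentile was 3.31 in pup 1 and 3.52 in pup 2 with copies, against 4.90 and 4.66 without. The Spearman correlation of the 2 orders was 0.68 over 79 members. Transcripts of Rpl36, Rps3a1, Rplp1, Rpl19, Rpl24 and Rpl23a shared at least 50% of their windows with another gene, and the median member shared 20.8%. Whether transcription of the copies or the division of reads gives these values was not tested.

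The median small subunit member stood above the median large subunit member per length. Without the stalk, the 44 detected large subunit members had a median of 723 TPM in pup 1 and 777 TPM in pup 2, against 840 and 913 TPM for the 32 small subunit members. The log2 ratio of these medians was -0.22 in pup 1 and -0.23 in pup 2, the same direction in both, and larger than the SD between pups of 0.012. The levels overlapped widely: the 25th to 75th percentiles in pup 1 were 494 to 955 TPM for the large and 624 to 1213 TPM for the small subunit.

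The P stalk of the large subunit recruits and activates the translational GTPases. Its members Rplp1 (1215 TPM in pup 1 and 1376 TPM in pup 2), Rplp2 (1225 and 1279 TPM) and Rplp0 (1191 and 1206 TPM) lay within the range of 1191 to 1376 TPM. Rplp1 and Rplp2 are each present as more than a single copy per ribosome, whereas Rplp0 is a single-copy anchor, yet their mRNA levels were alike. Rpl12, which forms the base of the stalk, was far lower at 141 and 153 TPM (532 and 573 TPM with copies).

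The 5S ribonucleoprotein joins 5S rRNA to Rpl5 and Rpl11 and, when not built into ribosomes, binds Mdm2 and thereby stabilises p53. Rpl11 had 392 TPM in pup 1 and 414 TPM in pup 2, and Rpl5 58.6 and 54.3 TPM. With copies they stood at 795 TPM (Rpl11) and 720 TPM (Rpl5) as means of the pups, much closer together than without them.

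Proteins that line the exit tunnel or surround its mouth, where chaperones and the signal recognition particle dock, all lay between 499 and 1229 TPM as means. Rpl23a had 1157 TPM in pup 1 and 1301 TPM in pup 2, and Rpl4, whose loop forms the tunnel constriction, had 1058 and 995 TPM. Rpl26 (918 and 1048 TPM), Rpl35 (864 and 949 TPM) and Rpl19 (865 and 921 TPM) followed. Rpl39, a tunnel wall protein, had 569 and 708 TPM, Rpl17 551 and 622 TPM and Rpl31 456 and 542 TPM. Rpl4 was the only one of these 8 with a higher TPM in pup 1.

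Near the peptidyl transferase centre, Rpl3 had 846 TPM in pup 1 and 824 TPM in pup 2, Rpl8 731 and 745 TPM, Rpl10 716 and 709 TPM, and Rpl36a 585 and 683 TPM. Of proteins at the mRNA entry and decoding site, Rps9 (1305 and 1296 TPM) and Rps2 (1198 and 1167 TPM) were high, Rps15 had 803 and 855 TPM and Rps3 556 and 580 TPM. Rps23, which reaches into the decoding centre, was lowest of these 5 at 281 and 285 TPM, but highest of them with copies at 1717 and 1864 TPM.

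Rps27a, a small subunit protein that is made as a fusion to ubiquitin, had 987 TPM in pup 1 and 1116 TPM in pup 2, above the median member in both.

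Diamond-Blackfan anaemia is a failure of human red cell formation. The 9 genes listed here as mutated in it lay between 56.4 and 2601 TPM as means, below Rpl41. The low end of this list is Rpl5 alone, which stood at 720 TPM with copies. Besides Rps19, Rpl5 and Rpl11, they included Rps26 (1133 TPM in pup 1 and 1303 TPM in pup 2), Rps24 (1020 and 1129 TPM), Rpl35a (850 and 943 TPM), Rps10 (818 and 870 TPM) and Rps7 (584 and 629 TPM). The median of the 9 genes was 850 and 943 TPM, near the median of all members at 782 and 855 TPM.

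Some ribosomal proteins have paralogs that replace them in certain tissues. Rpl3l, which replaces Rpl3 in striated muscle, had 0.32 TPM in pup 1 and 0.28 TPM in pup 2 (10 and 11 expected counts), against 846 and 824 TPM for Rpl3. That is 2643-fold lower in pup 1 and 2943-fold lower in pup 2, with 95% exact binomial counting intervals of 1452 to 5572 and 1619 to 5803. On the log2 scale the mean of the pups was -11.45, but -10.83 with the authors' posterior mean TPM and -9.33 with 1 TPM added to each gene, so the size of this difference depends on the measure. Muscle markers were near 0 as well: 3 of 8 were detected, and the highest was Tnnt3 at 2.79 ± 0.0636 TPM (SD, n = 2). Rpl3l shares no 50-base window with another gene, and its lead annotated coding sequence differs in length from that of Rpl3 (720 and 1209 bases).

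Rpl10l, an intronless gene that replaces Rpl10 in mouse male germ cells, had 0 expected counts in both pups, against 716 and 709 TPM for Rpl10. It was at least 6537-fold lower in pup 1 and at least 7969-fold lower in pup 2, taking 3 counts per library as the limit that a count of 0 allows. Rpl39l, the germ line paralog of Rpl39, had 0 expected counts in pup 1 and 2 in pup 2 (0.08 TPM), against 569 and 708 TPM for Rpl39. It was at least 3252-fold lower than Rpl39 in pup 1, and 8849-fold lower in pup 2 with a counting interval of 2524 to 75304. Their coding sequences differ from those of the partners at 98 of 642 bases (Rpl10l) and 23 of 153 bases (Rpl39l, shown above), and at most 7.60% of their 50-base windows occur in another gene. None of the 6 germ cell markers was detected.

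Other paralogs were abundant. Rpl36al had 614 TPM in pup 1 and 620 TPM in pup 2, against 585 and 683 TPM for Rpl36a, with log2 ratios of 0.07 and -0.14, so the direction was not the same in the pups. These genes encode the same protein, and the differing bases, in part shown above, leave 24 bases as the longest identical run of their coding sequences. Rps27l, whose human counterpart is induced by p53, had 669 and 715 TPM, against 446 and 563 TPM for Rps27. The log2 ratio of Rps27l over Rps27 was 0.47 ± 0.17 (SD, n = 2), positive in both pups. Rps27rt, the copy with the coding sequence of Rps27, had 1702 and 2057 TPM, and with it included Rps27 exceeded Rps27l in both pups.

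Rpl22l1, a paralog of Rpl22 outside the naming rule, had 502 TPM in pup 1 and 607 TPM in pup 2, against 380 and 419 TPM for Rpl22, a log2 ratio of 0.47 ± 0.095. Rpl7l1, a relative of Rpl7 that takes part in ribosome assembly, had 95.5 and 84.8 TPM, against 1539 and 1655 TPM for Rpl7. Of the genes named as members but annotated as pseudogenes, Rps4l had 162 and 164 TPM, against 728 and 774 TPM for the X-linked Rps4x. Rps3a2 had 18.5 and 21.1 TPM and Rps3a3 3.23 and 4.09 TPM, against 1258 and 1345 TPM for Rps3a1. Over the 11 pairs, the paralog was lower than its partner in both pups in 7, higher in both in 3, and without a common direction in 1. The 7 include the annotated pseudogenes Rps4l, Rps3a2 and Rps3a3. The 3 include Rps27l and Rps27rt, both set against Rps27 without its copies added, so these pairs are not independent.

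**Figure D2:**
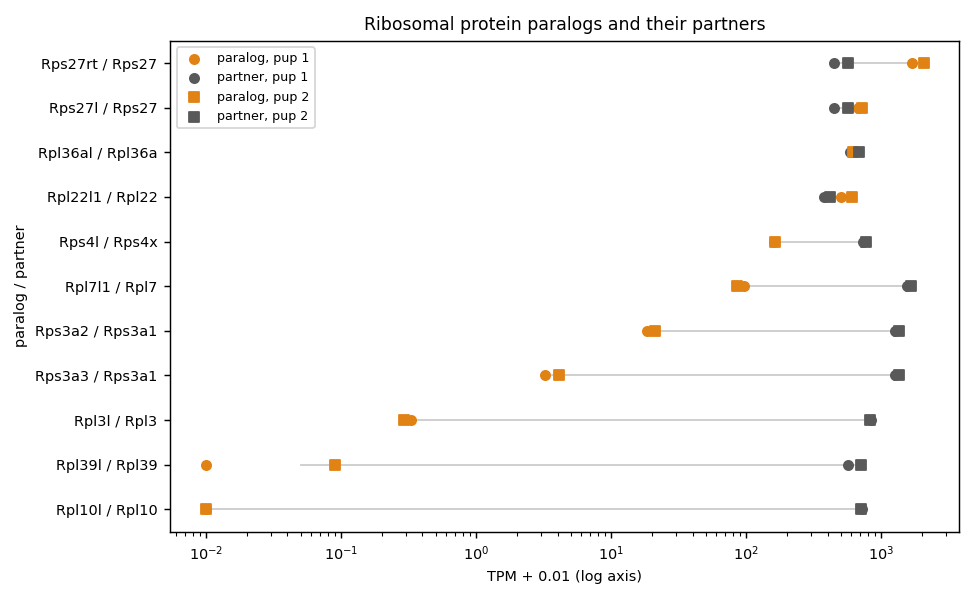
TPM + 0.01 (log axis) of 11 paralogs (orange) and their partners (grey) in pup 1 (circles) and pup 2 (squares), with a line between the means. Rpl10l and Rpl39l lie at or near the left edge, Rpl3l stands at 0.32 and 0.28 TPM, and Rpl36al, Rps27l and Rpl22l1 lie close to their partners.

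Every detected member had fewer scaled counts in pup 1 than in pup 2, by a small amount. The median member was -0.19 as the log2 ratio of TMM-scaled CPM (counts per library total) + 0.1. Below 0 were 79 of 79 tested members, 50.7% of the 15150 genes tested and 63.1% of other protein-coding genes at 300 TPM or more. The number of members below 0 was 78 with DESeq2 size factors or library totals and 70 with deposited TPM, where the median was -0.11. With deposited TPM the median of all genes tested moved too, to 0.083 from -0.0022 with TMM. A log2 ratio below -0.32 was reached by 3 members (3.8%), against 6.54% of all genes tested, a share near the background. No member was past 2-fold, where 0.607% of all genes tested were. The exact 95% binomial counting interval excluded 0 for 76 of the 79 (96.2%), against 40.4% of all genes tested and 82.7% of 404 other protein-coding genes at 300 TPM or more. It covers counting error alone, and each pup is a single library.

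Rps27 was lowest with a ratio of -0.42 (49.2 CPM in pup 1 and 66.1 CPM in pup 2), then Rpl39 at -0.41 (206 and 273 CPM), Rps15a at -0.35 (231 and 293 CPM) and Rpl31 at -0.32 (147 and 183 CPM). At the other end were Rpl4 at -0.00041 (991 and 992 CPM), Rpl28 at -0.03 (129 and 132 CPM), Rps6, the substrate of S6 kinase, at -0.04 (346 and 357 CPM) and Rpl3 at -0.05 (719 and 745 CPM). The ratio was higher for members of greater effective length (transcript length corrected for fragment size): Pearson's r was 0.54 and Spearman's rho 0.51 across 79 members. Across 404 other protein-coding genes at 300 TPM or more, r was 0.57 and rho 0.60.

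The median member ratio was -0.27 under 400 bases, -0.21 from 400 to under 600, -0.18 from 600 to under 1000 and -0.11 from 1000 to under 2000. In the same classes 96.3%, 90.5%, 73.9% and 47.7% of the other abundant genes were below 0, against all members. The medians of these other genes were -0.21, -0.13, -0.05 and 0.01, so the members lay below them in each class. After subtraction of these class medians, the median member stood at -0.10, 71 of 79 were below 0 and 0 were below -0.32. Some tissue markers also differed between the pups: Six2 had 9.21 TPM in pup 1 and 15.1 TPM in pup 2, and the proximal tubule gene Slc34a1 287 and 203 TPM. Whether transcript length, library depth or tissue make-up has a part in the shift of the members was not tested.

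**Figure D3:**
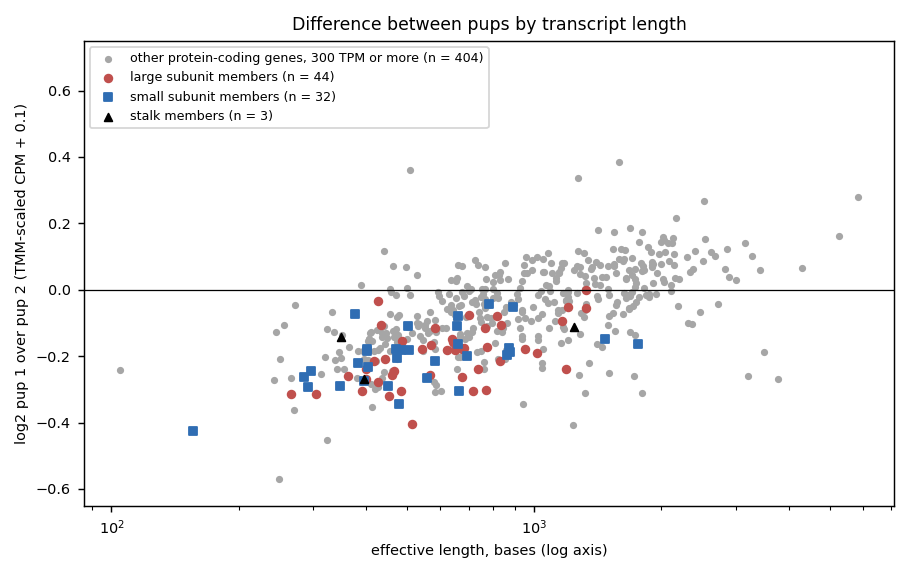
Log2 ratio of pup 1 over pup 2 (TMM-scaled CPM + 0.1) against effective length in bases (log axis) for 79 members by subunit and for 404 other protein-coding genes at 300 TPM or more (grey). All members lie below 0, from Rps27 at -0.42 to Rpl4 at the zero line, and the points of members and other genes lie higher at greater length.

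Medians nearer 0 were found for the other gene lists of this pathway. Translation factors had a median ratio of 0.02 (17 of 37 below 0), mitochondrial ribosomal proteins -0.04 (55 of 77), ribosome biogenesis factors 0.02 (12 of 31), RNA polymerase I machinery 0.05 (1 of 10) and ribosomal protein chaperones 0.05 (1 of 7). Other known TOP mRNAs had -0.06 (12 of 17) and growth control genes -0.02 (8 of 13), against 0.0010 for all protein-coding genes tested, 49.7% of which were below 0. Their transcripts are not matched in length to the members, whose median effective length was 566 bases, against 2341 bases for detected protein-coding genes. In these 7 lists Akt1 alone was past 0.32 in size, with 59.7 TPM in pup 1 and 91.1 TPM in pup 2.

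By median level, the members stood above each other list of this pathway. Translation factors had a median of 181 TPM in pup 1 and 169 TPM in pup 2 (37 of 37 detected), led by the elongation factor Eef1a1 (3906 and 3913 TPM), Eif1 (1397 and 1343 TPM) and Eif5a (1215 and 1092 TPM), with Eif5b lowest (18.2 and 17.2 TPM). Here and in the lists below, the highest and lowest genes are ranked by the mean of the pups. Other known TOP mRNAs had a median of 368 and 384 TPM (17 of 17), with Eef1a1, Tpt1 (1171 and 1250 TPM) and Npm1 (738 and 717 TPM) at the top and Eif4b lowest by mean (83.1 and 76.6 TPM), although in pup 1 Eif3f was lower at 80.3 TPM. Both lists hold Eef1a1, which exceeded Rpl41 in both pups.

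The mitochondrial ribosome is a separate machine built from nuclear genes. Its proteins had a median of 110 TPM in pup 1 and 105 TPM in pup 2 (77 of 77 detected), from Mrps21 (385 and 398 TPM), Mrpl17 (371 and 327 TPM) and Mrpl42 (336 and 331 TPM) to Mrpl1 (21.55 and 20.99 TPM). Their highest gene was thus below the median member. Ribosome biogenesis factors, which process rRNA and assemble subunits, had a median of 41.5 and 38.0 TPM (31 of 31), from Npm1, Ncl (270 and 232 TPM) and Nop10 (191 and 201 TPM) to Mdn1 (5.68 and 5.88 TPM).

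RNA polymerase I, which transcribes rRNA, and its factors had a median of 25.01 TPM in pup 1 and 23.9 TPM in pup 2 (10 of 10), from Polr1d (133 and 128 TPM), Ubtf (66.7 and 60.4 TPM) and Polr1c (66.2 and 59.4 TPM) to Taf1c (7.81 and 6.91 TPM). Dedicated chaperones of ribosomal proteins had a median of 42.8 and 40.4 TPM (7 of 7), from Aamp (218 and 198 TPM), Bccip (145 and 130 TPM) and Pdcd2 (40.3 and 44.6 TPM) to Tsr2 (27.5 and 24.3 TPM), whose yeast counterpart carries Rps26 to the ribosome. In pup 1 Pdcd2 was below the median of this list, so its place is not shared by the pups. Growth control genes of translation had a median of 45.7 and 40.1 TPM (13 of 13), from Rheb, the GTPase that activates mTOR (215 and 197 TPM), Eif4ebp1 (104 and 99.0 TPM) and Akt1 to Rptor (5.50 and 5.57 TPM). Akt1 was among the 3 highest by mean and in pup 2, while in pup 1 Mycn (63.3 TPM), Eif4ebp2 (62.7 TPM) and Myc (60.3 TPM) were above it. Of ribosomal proteins outside the naming rule, Fau had 605 and 642 TPM and Rack1 607 and 639 TPM, both inside the range of the members.

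**Figure D4:**
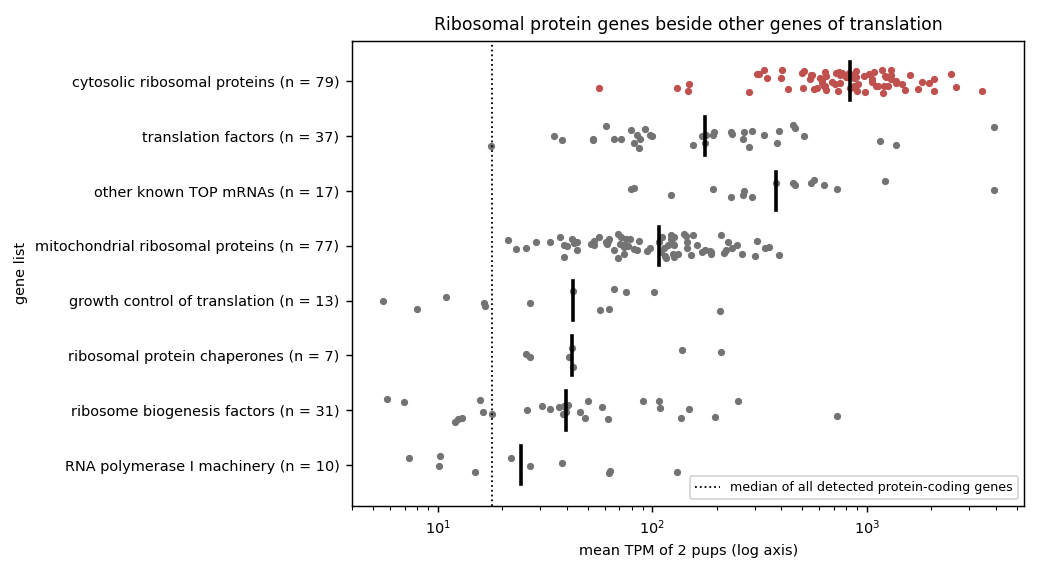
Mean TPM of both pups (log axis) for each detected gene of the family (top row) and of 7 other lists of translation genes; thick bars are medians and the dotted line is the median of detected protein-coding genes. The median of the ribosomal proteins is 837 TPM, above those of the other lists, which lie between 24.5 and 376 TPM.

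Within genes, transcripts with no annotated coding sequence held 7.004% of the members' TPM in pup 1 and 7.204% in pup 2, against 7.69% and 7.61% in other detected protein-coding genes and 6.88% and 6.81% in those at 300 TPM or more. The median share per gene was 0.34% and 0.37% for members, against 0 in both pups for other detected protein-coding genes and 0.22% and 0.20% for those at 300 TPM or more. In 74 of 79 detected members the leading transcript was protein-coding. The share without coding sequence was under 1% in both pups in 53.2% of other detected protein-coding genes. It was so in 63.1% of those at 300 TPM or more and in 45 of the 79 members. Among them Rpl13a had 89.0% of its TPM in pup 1 and 89.5% in pup 2 in transcripts absent from the M21 annotation, its leading transcript included; their type is unknown and they were not counted as lacking coding sequence. The other 44 members had under 10% in such transcripts. In 14 members (17.7%) the share was over 10% in both pups, against 20.9% of other detected protein-coding genes and 17.1% of those at 300 TPM or more. It was over 50% in 3 members (3.80%), against 3.92% and 6.44% of these genes. These shares are model estimates over overlapping transcripts.

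Rpl35, at the exit tunnel, had 95.2% of its TPM in transcripts without coding sequence in pup 1 and 95.7% in pup 2, mainly in the processed transcript Rpl35-203 (88.5% and 87.8%). Rps20, a small subunit head protein, had 94.1% and 94.5%, mainly in Rps20-201, annotated with a retained intron (93.1% and 93.3%). Its coding transcript Rps20-203 is annotated at 3706 bases, far longer than the 582 bases of Rps20-201. Rpl23, a large subunit protein, had 72.7% and 74.2%, mainly in Rpl23-204 (71.9% and 73.3%). These 3 genes had the highest such shares in both pups. Their coding transcripts had 41.2 and 40.7 TPM (Rpl35), 39.3 and 43.3 TPM (Rps20) and 189 and 209 TPM (Rpl23). Gm2000, a copy annotated as protein-coding with 85.1% of its windows in Rpl35, had 643 TPM in pup 1 and 689 TPM in pup 2. How reads were divided between Gm2000 and Rpl35 was not tested.

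Rps18 had 48.2% in pup 1 and 47.7% in pup 2, most of it in Rps18-209 beside the coding Rps18-201. Rpl5 had 47.4% and 41.3%, nearly all in transcripts with a retained intron, of which Rpl5-205 held 40.1% and 31.6%. Rps16 had 35.3% and 34.0%, in Rps16-203. In Rpl12 the leading transcript, with 61.8% and 66.7% of its TPM, was Rpl12-201, annotated as a target of nonsense-mediated decay, which degrades mRNAs with early stop codons. In Caenorhabditis elegans the counterpart of Rpl12 is known to limit its own level through such a splice form. Rps24, whose human and mouse mRNAs differ between tissues by small exons near the end of the coding sequence, had 90.1% and 90.3% in Rps24-201 (5 exons) and 9.88% and 9.69% in Rps24-202 (6 exons). The shares of Rps24 differed between the pups by under 0.2 percentage points.

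**Figure D5:**
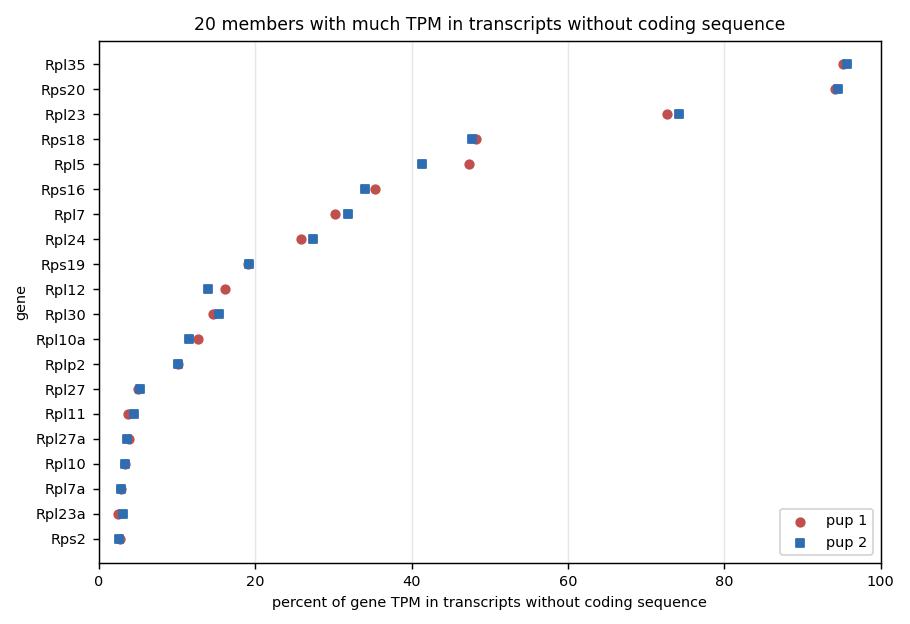
Percent of each gene's TPM assigned to transcripts without annotated coding sequence in pup 1 (circles) and pup 2 (squares), for 20 members where this percent was highest. Rpl35, Rps20 and Rpl23 lie above 50% in both pups, and the values fall below 10% after Rplp2.

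Introns of the members hold many snoRNA genes. In 30 of the 82 members (36.6%) at least 1 annotated snoRNA gene lay inside the gene on the same strand, 58 in all, against 1.19% of protein-coding genes and 1.59% of detected ones. Rpl4 held 5, and Rpl13a held 4 (Snord32a, Snord33, Snord34 and Snord35a). Hosts ranged in level from Rpl5 at 56.4 ± 3.02 TPM, with 3 snoRNA genes, to Rpl32 at 2463 ± 153 TPM, with Snora7a (SD, n = 2). Without copies added, hosts thus lay at both ends of the family. The copy Gm15500 of Rpl5 had 646 TPM in pup 1 and 680 TPM in pup 2. The host Rpl37, for which no copy was found, had 341 ± 35.7 TPM and holds Snord72. Members lay on 19 chromosomes, with 14 on chromosome 7 (17.1%, where 9.08% of protein-coding genes lie) and 4 on the X chromosome.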

How the data were processed

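Total RNA-seq libraries of both kidneys of 2 newborn littermates were used. The authors deposited, per library, gene and transcript tables with expected counts (estimated reads), TPM, posterior mean TPM, effective length and, for transcripts, the percent of a gene's TPM. They also deposited bounds of a credibility interval of TPM (used as a signal of precision), whose level is not stated. These bounds surround the posterior mean, and the deposited TPM lay above them for 36 members in pup 1 and 32 in pup 2. They reached 0.887 to 12.8% of TPM to either side over detected members, farthest for Rps27. Per the deposited text, transcriptome alignments to mm10 with GENCODE M4 were quantified for each library on its own. No aligner or strand setting is given in the sources used. Reads from a gene and its antisense or overlapping partner may therefore not be told apart.

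GENCODE M21 (GRCm38) gave names, types and coordinates, by Ensembl identifiers stripped of their versions. Of 358 transcripts of detected members 19 were not in M21. Members and lists were chosen with earlier results of these data known. Genes named are the 10 members of highest and of lowest mean TPM, the highest and lowest of each subunit, the paralog pairs, the functional groups, the 4 members at each end of the pup ratio, the 6 with most TPM outside coding transcripts with Rps24, and the 3 highest and the lowest gene of each list. The Rpl12 transcript, copies of members and marker genes named beyond this were chosen after their values were seen. For the pup ratio, expected counts were rounded and scaled by TMM (edgeR 4.0.16, R 4.3.3) for genes with at least 50 counts in either pup, with 0.1 CPM added. DESeq2 1.42.0 size factors, library totals and TPM were alternatives. Counting intervals are exact binomial at 95%, and a count of 0 allows up to 3 counts; both cover counting error only. Shared sequence was the percent of a gene's 50-base windows found in another gene. Only the scaling and the pup ratio were tested on simulated counts. Other software was Biopython 1.88, Matplotlib 3.10.9, SciPy 1.17.1, NumPy 2.4.6 and pandas 2.3.3 in Python 3.11.15. RefSeq promoters held 62 of the 82 members. Rpl26l1 and Rpl2, also listed, and comparisons of protein sequences were not analysed here. A few genes of the family are not reported here by name.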

Additional observations from a re-analysis of the deposited data

How the results depend on the processing

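No paired analysis was possible because both libraries belong to 1 group. The cause of each change below was not tested unless the alternative's construction shows it. The members' share of TPM was 7.46%. It was 6.70% without the 6 members that share at least 50% of their windows, 9.61% with copies added (an alternative chosen after seeing the data, as are all with copies), 9.43% of nuclear protein-coding TPM and 3.15% of expected counts, which are not per length. With copies the median member stood at 1016 TPM, against 818 TPM, and the ratio of the 90th to the 10th percentile was 3.41, against 4.78. The log2 ratio of the large over the small subunit was -0.22, and became -0.29 without the sharing members, -0.28 with copies and -0.20 as a ratio of means, each lower in the large subunit. Leaving out either pup gave shares of 7.14 to 7.78%, medians of 782 to 855 TPM, percentile ratios of 4.66 to 4.90, subunit ratios of -0.23 to -0.22, 79 detected members, 7 to 8 pairs with the lower paralog, and 7.004 to 7.204% of TPM outside coding transcripts.

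The median pup ratio of -0.19 became -0.11 with deposited TPM and -0.10 less the medians of length classes, an alternative chosen after seeing the data. With deposited TPM the median of all genes tested moved as well, from -0.0022 to 0.083. The 3 members below -0.32 became 1 and 0 in these. The 6 members that share at least 50% of their windows became 1 with 100-base windows and, chosen after seeing the data, 21 over protein-coding transcripts alone. Members with a tract at the start numbered 51, against 28, within 20 bases of the start, where the shares were 82.3% of members and 53.3% of all genes. Of the other values for whole results, 52 stayed within their limit (1 SD between pups, the counting interval, or 1.5 times a count), and of those for single pairs 40 did and 5, for Rpl3l, Rps3a2 and Rps3a3, moved without changing direction. With n = 2, the value from 1 pup always lies within 1 SD of the mean. Leaving out a pup could therefore not move a result judged by that SD, and such values are among those that stayed. Precision is limited by n = 2 littermates.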
